A study of Mus musculus with 11 samples.

Results

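Plasmin dissolves fibrin and cuts other proteins around the cell. The 5 genes described here encode proteins that start, place or restrain its formation, except Serpinf1, whose product does not inhibit proteases. The genes are Plau (urokinase-type plasminogen activator), Plat (tissue-type plasminogen activator), Plaur (the urokinase receptor) and 2 members of the serpin family, Serpine2 (protease nexin 1) and Serpinf1 (pigment epithelium-derived factor, PEDF). They were taken by symbol from a gene table of 32868 named genes, and all 5 of 5 symbols were found in it.

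The cells were primary lung fibroblasts of neonatal mice, which had been sorted by flow cytometry before bulk RNA sequencing. PAD2KO cells are labelled as knockout for peptidylarginine deiminase 2, the enzyme encoded by Padi2 that turns arginine in proteins into citrulline, and WT cells were wild type. Batch 2 held PAD2KO 6 and PAD2KO 7 with WT 5, WT 6 and WT 7, and batch 1 held PAD2KO 1, PAD2KO 2 and PAD2KO 3 with WT 1, WT 3 and WT 4. The labels name batches without saying what was separate about them, and any difference between batches cannot be told apart from whatever else differed between them. No treatment is named for any library, although the title of the series speaks of tumor necrosis factor. The age in days, the sorting gate, the deleted part of the gene and whether libraries came from separate animals are not given in the sources used here, so p-values speak only to the spread between libraries, and that spread could be technical.

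Plasminogen circulates as an inactive precursor and is cut to plasmin by tissue-type or urokinase-type activator. The urokinase receptor is a lipid-anchored protein that holds urokinase at the cell surface, where it works beside integrins. Serpins are proteins of a common fold, most of which trap a protease by offering it a bait loop. Protease nexin 1 traps thrombin, urokinase, tissue-type activator and plasmin, and PEDF shares the fold but is a secreted factor that does not inhibit proteases. In the lung, fibroblasts are a source of activators and of their inhibitors, and the balance between them is known for its part in clearing fibrin after injury.

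Promoters are shown for the members that RefSeq's promoter table holds (build GRCm38.p6, from 250 bases before to 50 after the start of the gene), because these genes were all higher in batch 2 than in batch 1 in WT cells. The table matched 3 of the 5 members, and those of Plau and Plat are not shown. Each line reads 5′ to 3′ on the strand of the gene, and capitals mark a match to the AP-1 motif, TGANTCA.
Plaur, chr7:24462233-24462532, plus strand: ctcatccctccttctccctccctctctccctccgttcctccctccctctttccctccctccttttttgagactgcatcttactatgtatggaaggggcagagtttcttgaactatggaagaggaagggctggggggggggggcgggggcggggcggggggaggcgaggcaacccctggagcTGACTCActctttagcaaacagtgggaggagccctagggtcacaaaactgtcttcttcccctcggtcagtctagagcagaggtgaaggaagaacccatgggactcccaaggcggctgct
Serpine2, chr1:79858616-79858915, minus strand: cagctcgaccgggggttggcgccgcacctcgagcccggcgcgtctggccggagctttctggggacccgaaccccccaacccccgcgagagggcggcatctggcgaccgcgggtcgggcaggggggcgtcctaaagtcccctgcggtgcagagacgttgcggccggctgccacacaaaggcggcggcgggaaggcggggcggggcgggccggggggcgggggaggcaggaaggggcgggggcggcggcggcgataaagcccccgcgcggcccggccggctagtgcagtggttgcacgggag
Serpinf1, chr11:75422574-75422873, minus strand: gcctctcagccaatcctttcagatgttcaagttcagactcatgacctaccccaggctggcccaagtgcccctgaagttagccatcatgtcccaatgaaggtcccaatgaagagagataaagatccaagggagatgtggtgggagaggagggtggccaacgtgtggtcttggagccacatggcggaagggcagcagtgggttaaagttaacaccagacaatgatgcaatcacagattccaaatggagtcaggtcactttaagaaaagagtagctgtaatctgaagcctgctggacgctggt
The windows were searched on both strands for 5 motifs, none of whose letters lie within another. The Plaur window held the AP-1 letters once, at position -69 from the start, where 7.81% of 32851 windows of the same length held them at least once. It also held the GC box, whose letters GGGCGG were in 35.7% of windows, 3 times. The Serpine2 window was the richest in G and C of the 3, at 77.7% against a mean of 53.8% over all windows, and held the GC box 6 times. The Serpinf1 window, at 50.7% G and C, held neither motif. None of the 3 windows held the other motifs searched, which were the cyclic AMP element TGACGTCA with 1.79% of all windows, the TEAD motif GGAATG with 14.7% of them and the TATA box TATAAA with 13.6%. A match is a description of letters, not of binding.

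Counts assigned to named genes ranged from 962633 to 1421243 a library, and each member had between 34 and 467 counts in every library, so all 5 passed the filter on low counts with 9932 genes tested. Padi2 had 9 counts over the 5 PAD2KO libraries and 3 over the 6 WT libraries, so the target was not lower in PAD2KO and is too rare to check the labels. All 8 fibroblast markers had counts in every group, and their summed level was 5944 to 6588 CPM (counts put on an equal library size) in PAD2KO of batch 2, 6383 to 7173 in WT of batch 2, 11630 to 13408 in PAD2KO of batch 1 and 12275 to 16218 in WT of batch 1. Col1a1, Col1a2 and Col3a1 carried that batch difference, while Vim averaged 1951 CPM in PAD2KO and 1667 in WT of batch 2 and 1380 in PAD2KO and 1444 in WT of batch 1. The 7 smooth muscle and pericyte markers summed to 3653 to 4613 CPM in PAD2KO of batch 2 and 1390 to 1720 in WT of batch 2, and to 4632 to 7106 in PAD2KO and 6124 to 6687 in WT of batch 1, with Acta2 the main part (3500 CPM in PAD2KO and 1247 in WT of batch 2) and Rgs5 the other way (1.62 and 9.14 CPM). Macrophage and monocyte markers, of which 7 or 8 of 8 had counts in each group, summed to 76.3 to 127 CPM in PAD2KO and 123 to 324 in WT of batch 2, and to 31.7 to 65.0 in PAD2KO and 24.1 to 63.1 in WT of batch 1, with WT 7 the highest library. Of these markers, Cd14, Lyz2, Adgre1, Csf1r and Marco had higher means in batch 2 than in batch 1 in both genotypes. Ptprc had lower means in batch 2 (1.22 against 1.52 CPM in PAD2KO, 1.23 against 1.81 in WT). Cd68 and Itgam had lower means in batch 2 in PAD2KO and higher ones in WT. Neutrophil markers reached 20.7 to 47.6 CPM in PAD2KO and 66.6 to 141 in WT of batch 2 and at most 1.48 in batch 1, nearly all of it from S100a8, with S100a9 and Retnlg at 0. Mesothelial markers summed to 50.1 to 91.1 CPM in PAD2KO and 52.6 to 90.8 in WT of batch 2, and to 90.8 to 255 in PAD2KO and 200.4 to 348 in WT of batch 1. Epithelial markers reached at most 48.4 CPM with Sftpc, Scgb1a1 and Nkx2-1 at 0, endothelial markers at most 12.9 and lymphocyte markers at most 3.52. In bulk RNA, fewer cells of a type and less RNA per cell cannot be told apart.

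The 2 serpins were the most abundant members in all 11 libraries on the scale of TPM, an abundance that corrects for gene length and so allows genes to be compared. In batch 2, Serpinf1 averaged 208 ± 19.1 TPM in PAD2KO and 455 ± 85.4 TPM in WT (SD, n = 2 and 3), and Serpine2 averaged 257 ± 57.5 TPM in PAD2KO and 332 ± 39.3 TPM in WT. In batch 1, Serpinf1 averaged 225 ± 52.2 TPM in PAD2KO and 202 ± 28.1 TPM in WT (SD, n = 3 each), and Serpine2 averaged 169 ± 51.8 TPM in PAD2KO and 176 ± 24.5 TPM in WT. The activators and the receptor lay below them, between 20.9 and 129 TPM over the 11 libraries. Serpine2 stood above Serpinf1 in PAD2KO 6, PAD2KO 7 and WT 1 and below it in the other 8 libraries. The ranges of the 2 serpins overlapped in PAD2KO of batch 2 and in both groups of batch 1, and did not overlap in WT of batch 2, where Serpinf1 was the higher. In PAD2KO of batch 2 the other members stood in the order Plau, Plaur, Plat with no overlap between neighbours. In WT of batch 2 neighbours in that order overlapped. In batch 1 Plat was above Plau with no overlap in either genotype, and Plaur overlapped Plat in PAD2KO and Plau in WT.

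**Figure D1:**
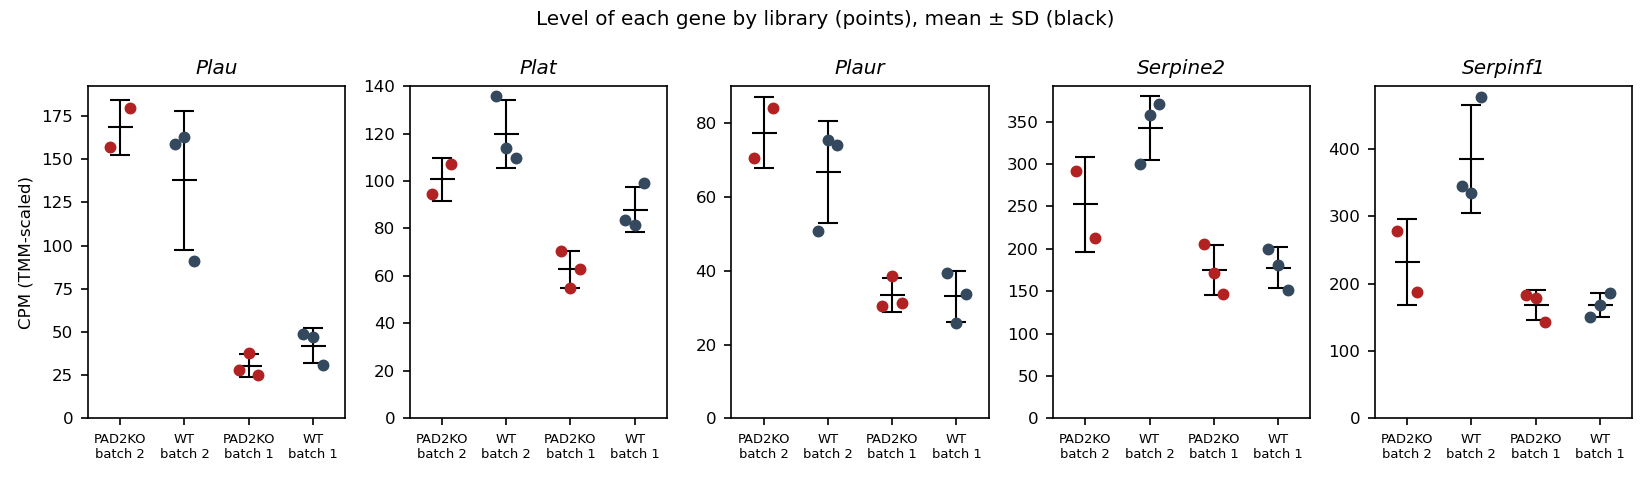
Level of each member in every library (points, CPM scaled by TMM) with the mean and SD of each group (black), in PAD2KO and WT of batch 2 and PAD2KO and WT of batch 1. On this scale, Plau, Plat, Plaur and both serpins sit higher in batch 2 than in batch 1 in either genotype. Serpinf1 in batch 2 is at 187 and 278 CPM in PAD2KO, below 334 to 477 CPM in WT.

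Urokinase had the largest log2 fold change between batches of the 5 members, in both genotypes. Plau stood at 157 and 179.6 CPM in PAD2KO 6 and PAD2KO 7 of batch 2, against 28.1, 38.0 and 25.2 CPM in PAD2KO 1, PAD2KO 2 and PAD2KO 3 of batch 1. In WT cells it stood at 159, 163 and 91.3 CPM in WT 5, WT 6 and WT 7 of batch 2, against 48.9, 46.8 and 30.6 CPM in WT 1, WT 3 and WT 4 of batch 1. Every library of batch 2 was above every library of batch 1, and WT 7 was the lowest of batch 2. The level was 5.49-fold higher in batch 2 in PAD2KO (log2 fold change 2.46 ± 0.240 SE, edgeR quasi-likelihood test, adjusted p = 1.51e-06) and 3.31-fold higher in WT (1.73 ± 0.217, edgeR adjusted p = 1.26e-05). Between genotypes, Plau was not called in batch 2, where PAD2KO and WT overlapped (log2 fold change 0.27 ± 0.205, edgeR adjusted p = 0.624). In batch 1 they overlapped as well (-0.46 ± 0.263, edgeR adjusted p = 0.920). The difference between these 2 genotype differences was 0.73 ± 0.334 on the log2 scale, with an unadjusted p of 0.0436 and an edgeR adjusted p of 0.404.

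Tissue-type activator was the member whose PAD2KO libraries lay below the WT libraries without overlap in both batches, and it did not pass the threshold in either. Plat had 94.4 and 107 CPM in PAD2KO 6 and PAD2KO 7, against 136, 114 and 109.5 CPM in WT 5, WT 6 and WT 7. In batch 1 it had 70.6, 54.9 and 63.1 CPM in PAD2KO 1, PAD2KO 2 and PAD2KO 3, against 83.6, 81.3 and 99.0 CPM in WT 1, WT 3 and WT 4. All PAD2KO libraries were below all WT libraries of their own batch, as held in both batches for 94 of the 9932 genes tested (0.946%). The log2 fold change was -0.26 ± 0.152 in batch 2 (edgeR adjusted p = 0.476) and -0.49 ± 0.146 in batch 1 (unadjusted p = 0.00252, edgeR adjusted p = 0.321). With both batches in the fit it was -0.38 ± 0.108, lower in 5 of 5 PAD2KO libraries than the WT mean of their batch, with an unadjusted p of 0.00197 and an edgeR adjusted p of 0.292. The batch 2 value was -0.14 without WT 5 and -0.17 without PAD2KO 6 (edgeR adjusted p = 0.784 and 0.802). Plat was also higher in batch 2, 1.61-fold in PAD2KO (log2 fold change 0.69 ± 0.160, edgeR adjusted p = 0.00278) and 1.37-fold in WT (0.46 ± 0.137, edgeR adjusted p = 0.0157). The PAD2KO call was lost without PAD2KO 7 (0.58, edgeR adjusted p = 0.0707). The WT call was lost without WT 1 (0.42, edgeR adjusted p = 0.0634), WT 3 (0.40, 0.0829) or WT 5 (0.35, 0.123), with gene length in the fit (0.45, 0.0802) and by DESeq2 (0.45, adjusted p = 0.0689).

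The proportion of the activators also differed between batches. Within a library, the TPM of Plau divided by that of Plat was 2.68 and 2.41 in PAD2KO 6 and PAD2KO 7 and 1.76, 2.14 and 1.16 in WT 5, WT 6 and WT 7. In batch 1 this ratio was 0.589, 0.947 and 0.650 in PAD2KO 1, PAD2KO 2 and PAD2KO 3 and 0.863, 0.940 and 0.501 in WT 1, WT 3 and WT 4. Urokinase mRNA exceeded tissue-type activator mRNA in all 5 libraries of batch 2 and in 0 of the 6 of batch 1. In batch 2 the ratio averaged 2.54 ± 0.191 in PAD2KO and 1.69 ± 0.494 in WT (SD, n = 2 and 3), and the genotypes did not overlap. In batch 1 it averaged 0.729 ± 0.192 in PAD2KO and 0.768 ± 0.234 in WT (SD, n = 3 each), and they overlapped. The ratio was not tested.

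**Figure D2:**
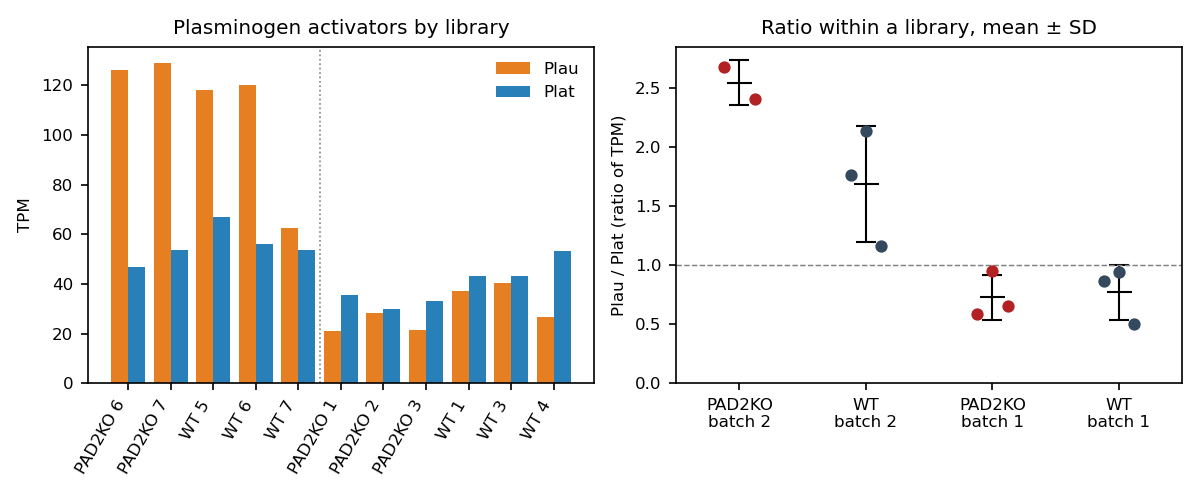
Left, TPM of Plau and Plat in each library, with batch 2 left of the dotted line; right, the ratio of Plau to Plat within each library (points) with the mean and SD of each group, the dashed line marking equal levels. The ratio is 1.16 to 2.68 in batch 2 and 0.501 to 0.947 in batch 1.

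The urokinase receptor was higher in batch 2 in both genotypes and was not called between genotypes in either batch. Plaur had 70.6 and 84.2 CPM in PAD2KO 6 and PAD2KO 7, against 30.5, 38.7 and 31.2 CPM in PAD2KO 1, PAD2KO 2 and PAD2KO 3. It had 50.9, 75.5 and 74.1 CPM in WT 5, WT 6 and WT 7, against 39.5, 25.9 and 33.8 CPM in WT 1, WT 3 and WT 4. All libraries of batch 2 were above all of batch 1. The level was 2.30-fold higher in batch 2 in PAD2KO (log2 fold change 1.20 ± 0.210, edgeR adjusted p = 0.000121) and 2.01-fold higher in WT (1.01 ± 0.198, edgeR adjusted p = 0.000315). PAD2KO and WT overlapped in batch 2 (0.23 ± 0.197, edgeR adjusted p = 0.674) and in batch 1 (0.03 ± 0.214, edgeR adjusted p = 0.999). Macrophages also carry this receptor, and their summed markers, though not each single marker, were higher in batch 2 as given above. The part of macrophages in the difference was not tested.

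Protease nexin 1 was higher in batch 2 and, in that batch, lay lower in PAD2KO than in WT without passing the threshold. Serpine2 had 292 and 213 CPM in PAD2KO 6 and PAD2KO 7, against 299.8, 358 and 370.4 CPM in WT 5, WT 6 and WT 7. In batch 1 it had 206, 171 and 147 CPM in PAD2KO 1, PAD2KO 2 and PAD2KO 3, against 200.4, 181 and 152 CPM in WT 1, WT 3 and WT 4. In batch 2 the genotypes did not overlap, PAD2KO 6 lying just under WT 5, and in batch 1 they overlapped. The log2 fold change of PAD2KO against WT was -0.44 ± 0.154 in batch 2 (unadjusted p = 0.00918, edgeR adjusted p = 0.143) and -0.03 ± 0.144 in batch 1 (edgeR adjusted p = 0.996), and these differed by -0.41 ± 0.211 (edgeR adjusted p = 0.464). The batch 2 difference was -0.68 and passed without PAD2KO 6 (edgeR adjusted p = 0.0371), and was -0.23 without PAD2KO 7 (edgeR adjusted p = 0.815). Between batches the level was 1.92-fold higher in WT (log2 fold change 0.94 ± 0.140, edgeR adjusted p = 1.44e-05) and 1.45-fold higher in PAD2KO (0.53 ± 0.156, edgeR adjusted p = 0.0186). The PAD2KO call was lost without PAD2KO 6 (0.29, edgeR adjusted p = 0.361), without PAD2KO 3 (0.42, 0.0939) and with gene length in the fit (0.69, 0.0982).

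PEDF was the member whose mRNA fell in PAD2KO cells, in batch 2. Serpinf1 had 278 and 187 CPM in PAD2KO 6 and PAD2KO 7, against 345, 334 and 477 CPM in WT 5, WT 6 and WT 7. In batch 1 it had 183, 179 and 143 CPM in PAD2KO 1, PAD2KO 2 and PAD2KO 3, against 149.9, 169 and 186 CPM in WT 1, WT 3 and WT 4. Both PAD2KO libraries of batch 2 were below all 3 WT libraries, whereas the genotypes overlapped in batch 1. The level in PAD2KO of batch 2 was 0.606 of that in WT (log2 fold change -0.72 ± 0.178, edgeR adjusted p = 0.0304), while batch 1 gave -0.00 ± 0.165 (edgeR adjusted p = 1.0). The difference between the batches was -0.72 ± 0.242, with an unadjusted p of 0.00801, and did not pass after adjustment (edgeR adjusted p = 0.183). In batch 2 the summed smooth muscle and pericyte markers were higher and the summed neutrophil markers lower in PAD2KO than in WT, as given above, while the macrophage markers overlapped. WT 7 was the highest library both for Serpinf1 and for summed macrophage markers, and the part of these markers in the result was not tested.

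The batch 2 call of Serpinf1 rested on few libraries. It was lost without PAD2KO 7 (log2 fold change -0.46, edgeR adjusted p = 0.443), without WT 7 (-0.55, 0.0694) and with batch 2 fitted alone (-0.72, 0.110), and without PAD2KO 6 the difference was -1.04 (edgeR adjusted p = 0.00188). The deposited effective length of Serpinf1, the length over which its fragments were taken to arise, was 1444 and 1103 bases in PAD2KO 6 and PAD2KO 7, against 873.1, 1015 and 1008 bases in WT 5, WT 6 and WT 7. With lengths in the fit the batch 2 difference was -1.14 (edgeR adjusted p = 0.0235). Between batches, Serpinf1 was 2.28-fold higher in batch 2 in WT (log2 fold change 1.19 ± 0.160, edgeR adjusted p = 1.86e-05), and in PAD2KO it gave 0.47 ± 0.180 and was not called (edgeR adjusted p = 0.0833). This PAD2KO value turned to -0.03 with lengths in the fit (edgeR adjusted p = 0.961), and it passed without PAD2KO 7 (0.72, edgeR adjusted p = 0.0113), without WT 7 (0.47, 0.0269) and with no filter on low counts (0.48, 0.0068).

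**Figure D3:**
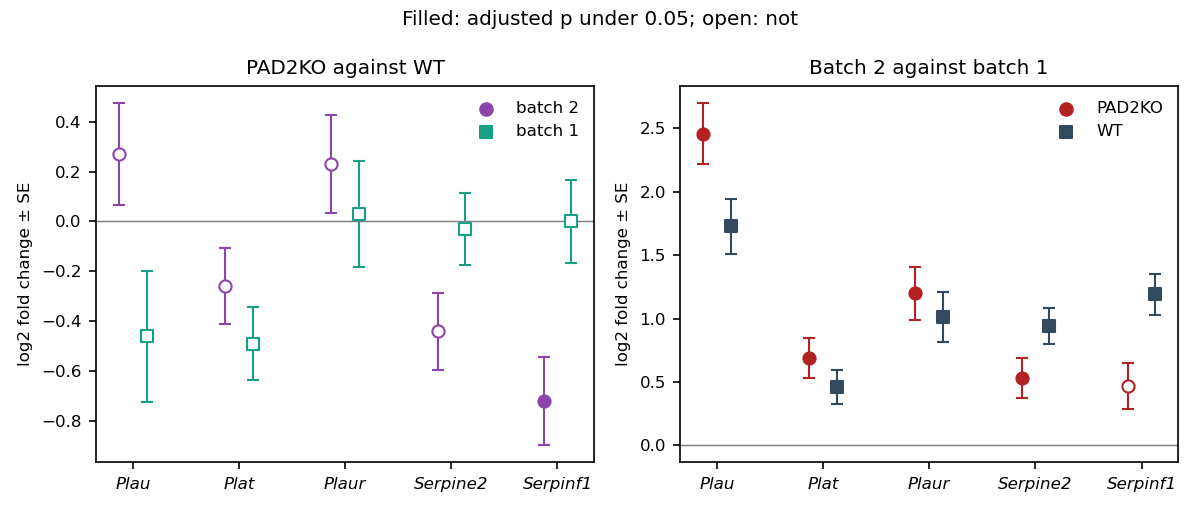
Fold change of each member on the log2 scale with its standard error, for PAD2KO against WT in batch 2 and batch 1 (left) and for batch 2 against batch 1 in PAD2KO and WT (right); filled symbols passed an adjusted p of 0.05 in edgeR. Serpinf1 in batch 2 is the filled symbol on the left, at -0.72, and on the right 9 of 10 symbols are filled, from 0.46 for Plat in WT to 2.46 for Plau in PAD2KO.

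Counted over the 5 members at an adjusted p of 0.05, PAD2KO against WT gave 1 called member in batch 2, lower in PAD2KO, where 3.11% of all genes tested were called in either direction and 1.71% were lower. In batch 1 it gave 0 called members by edgeR and 0 by DESeq2, with 1 (Plat) at an unadjusted p under 0.05, where 0.131% of genes were called and 5.49% had such an unadjusted p. The median log2 fold change of the members was -0.26 in batch 2 and -0.03 in batch 1, beside -0.01 and -0.00 over all genes tested. Plat, Serpine2 and Serpinf1 had all PAD2KO libraries below all WT libraries in batch 2, as did 15.7% of genes, and Plat did in batch 1, as did 5.92%. For the difference between the batches, 0 members were called by edgeR and by DESeq2 and 2 (Plau and Serpinf1) had an unadjusted p under 0.05, where 1.62% of genes were called and 11.6% had such an unadjusted p. Over both batches 0 were called by either tool, with Plat at an unadjusted p under 0.05, where 0.191% of genes were called and 7.64% had such an unadjusted p.

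More members were called between batches than between genotypes. Batch 2 against batch 1 gave 4 called members of 5 in PAD2KO, where 18.7% of genes were called and 9.52% were higher, and 5 of 5 in WT, where 22.3% were called and 11.7% were higher. All 9 calls were higher in batch 2. On the CPM scale, all 5 members had every batch 2 library above every batch 1 library in each genotype. The same held for 22.4% of genes in PAD2KO and 18.7% in WT. On the TPM scale this failed for Serpinf1 in PAD2KO, which averaged 208 TPM in batch 2 and 225 TPM in batch 1. The median log2 fold change of the members was 0.69 in PAD2KO and 1.01 in WT, beside -0.02 and -0.00 over all genes tested. The 2 contrasts used different libraries but the same pair of batches.

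The wider plasminogen system and related genes were followed in 7 further lists that hold 85 genes, of which 48 passed the filter. The related genes are in the lists of thrombin and cell surface proteases, of other serpins and of PEDF receptors and partners. Plasminogen itself (Plg) and vitronectin (Vtn) were among the genes with too few counts to test. In batch 2, 11 of the 48 were called between PAD2KO and WT, 8 higher and 3 lower, which is 22.9% beside 3.11% of all genes. In batch 1, 0 were called by edgeR and 0 by DESeq2, with 9 at an unadjusted p under 0.05, and over both batches 0 were called by either tool, with 15 at such a p. The genotype difference differed between batches for 6 of the 48 (12.5% beside 1.62% of all genes). The median log2 fold change over the 48 was -0.02 in batch 2, beside -0.01 over all genes. The lists were chosen with earlier results of these data known, so the shares are descriptions.

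**Figure D4:**
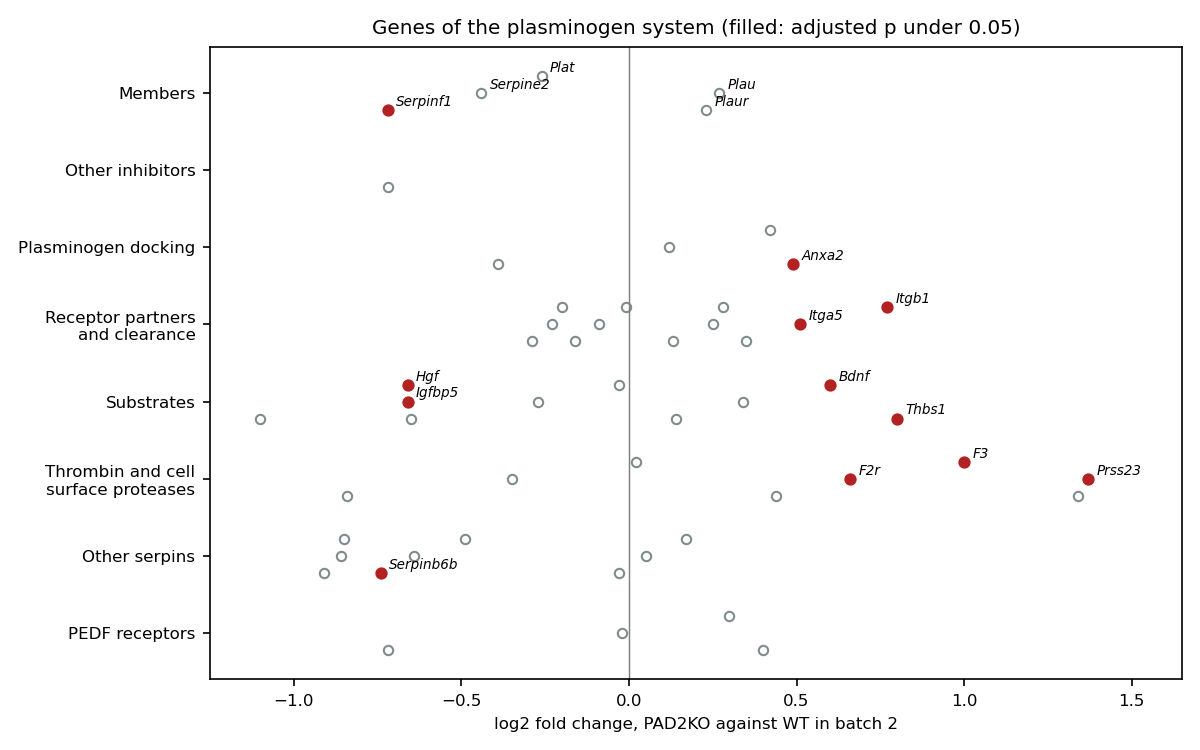
Fold change of PAD2KO against WT in batch 2 on the log2 scale for each tested gene of the plasminogen system and related lists, by list. Filled points passed an adjusted p of 0.05 in edgeR, and members and called genes carry their names. Filled points of the receptor partner and thrombin lists lie to the right, up to 1.37 for Prss23, while Serpinf1 lies at -0.72.

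Among the other inhibitors, 1 of the 7 genes listed, Serpini1, passed the filter on low counts. Serpinb2 did not pass it and was not tested, although it was not low in every group. In batch 2 it had 3.18 and 29.6 CPM in PAD2KO and 57.6 to 68.7 CPM in WT. In batch 1 Serpinb2 averaged 1.48 CPM in PAD2KO and 2.27 CPM in WT. Serpini1, which encodes neuroserpin, an inhibitor of tissue-type activator, averaged 33.1 ± 2.66 CPM in PAD2KO and 53.8 ± 12.2 CPM in WT of batch 2 (SD, n = 2 and 3), and was not called (log2 fold change -0.72, edgeR adjusted p = 0.220). In batch 1 it averaged 7.21 ± 2.75 CPM in PAD2KO and 6.48 ± 5.32 CPM in WT (SD, n = 3 each), and was not called either (0.17, edgeR adjusted p = 0.995).

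Of the docking proteins and receptor partners, 3 of 16 tested genes were called in batch 2 and all 3 rose. Anxa2, which encodes a docking protein for plasminogen and tissue-type activator, was called among 4 tested docking proteins, at 1568 ± 163 CPM in PAD2KO and 1116 ± 149.6 CPM in WT of batch 2 (SD over 2 and 3 libraries, as for the means that follow, log2 fold change 0.49, edgeR adjusted p = 0.0155). Of 12 tested receptor partners and clearance receptors, 2 were called and both rose. Itgb1, the integrin beta 1 chain, had 777 and 925 CPM in PAD2KO and 515, 531 and 450 CPM in WT (0.77, edgeR adjusted p = 0.000171). Itga5, its partner in the fibronectin receptor, averaged 554 ± 8.29 CPM in PAD2KO and 392 ± 57.0 CPM in WT (0.51, edgeR adjusted p = 0.0426). In batch 1 both values had the opposite sign and were not called (Itgb1 -0.25 and Itga5 -0.26, edgeR adjusted p = 0.813 and 0.901), and the batches differed by 1.02 for Itgb1 (edgeR adjusted p = 0.000483) and by 0.77 for Itga5 (edgeR adjusted p = 0.0318).

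Substrates moved in both directions, with 4 of 10 tested genes called. Thbs1, the matrix protein thrombospondin 1, had 4676 and 4958 CPM in PAD2KO and 2669, 2501 and 3152 CPM in WT of batch 2, and rose (log2 fold change 0.80, edgeR adjusted p = 0.000178). Bdnf, a neurotrophin whose precursor plasmin can cut, rose at 116 ± 8.73 CPM in PAD2KO and 77.1 ± 6.39 CPM in WT (0.60, edgeR adjusted p = 0.0328). Igfbp5, an insulin-like growth factor binding protein, had 1563 and 1232 CPM in PAD2KO and 1860, 2325 and 2424 CPM in WT, and fell (-0.66, edgeR adjusted p = 0.00352). Hgf, the hepatocyte growth factor that urokinase can activate, had 103 and 118 CPM in PAD2KO and 161, 175 and 191 CPM in WT, and fell (-0.66, edgeR adjusted p = 0.0165). The genotypes did not overlap for Thbs1, Bdnf, Igfbp5 or Hgf, which is common with 2 against 3 libraries. All PAD2KO libraries lay below all WT libraries of batch 2 for 15.7% of genes tested, and the share above is not given here. The genotype difference of batch 2 minus that of batch 1 was 1.02 for Thbs1 (edgeR adjusted p = 0.000754) and -0.84 for Igfbp5 (edgeR adjusted p = 0.00976), with batch 1 at -0.22 and 0.19, neither called (edgeR adjusted p = 0.904 and 0.922).

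Of 8 tested genes of the thrombin and cell surface protease list, 3 were called in batch 2 and all 3 rose. F3, which encodes tissue factor, the starter of coagulation, had 249 and 286 CPM in PAD2KO and 145, 128 and 128 CPM in WT (log2 fold change 1.00, edgeR adjusted p = 2.99e-05). Prss23, a serine protease, had 86.2 and 103 CPM in PAD2KO and 46.5, 41.3 and 18.3 CPM in WT (1.37, edgeR adjusted p = 0.000467). F2r, the thrombin receptor PAR1, averaged 627 ± 68.8 CPM in PAD2KO and 395 ± 64.2 CPM in WT (0.66, edgeR adjusted p = 0.00905). For F3, Prss23 and F2r the groups did not overlap, which by itself is common with so few libraries, as given above. For F3 and Prss23 the genotype difference was larger in batch 2 by 0.93 (edgeR adjusted p = 0.00355) and by 1.12 (edgeR adjusted p = 0.0315). Of 9 other serpins tested, Serpinb6b, whose counts may be shared with close relatives, averaged 49.6 ± 3.99 CPM in PAD2KO and 81.7 ± 18.5 CPM in WT and fell (-0.74, edgeR adjusted p = 0.0304), and of 4 tested PEDF receptors and partners 0 were called by edgeR, with 2 at an unadjusted p under 0.05.

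Itgb1, Thbs1, F3 and Prss23 passed in batch 2 in each of the 11 fits that left out a library. The other 7 of the 11 calls were lost without PAD2KO 7, with edgeR adjusted p from 0.112 for Hgf to 0.412 for Bdnf, so that 4 genes of 51 tested were called without that library. Anxa2 was also lost without WT 5 or WT 6, Hgf without PAD2KO 6 or WT 7, Serpinb6b without PAD2KO 6 or WT 5, and Bdnf and Itga5 without PAD2KO 6, WT 3, WT 5 or WT 6 (edgeR adjusted p from 0.0503 for Bdnf to 0.209 for Serpinb6b). Without WT 5, 7 of 48 were called. Of the 6 differences between batches, those of Itgb1 and Thbs1 passed in all 11 such fits, that of F3 was lost without PAD2KO 7 (edgeR adjusted p = 0.0731), that of Igfbp5 without PAD2KO 7 (0.152) or WT 3 (0.0564), and those of Prss23 and Itga5 passed in 6 and 3 of 11. With gene length in the fit, the batch 2 calls of Itgb1, Thbs1, F3 and Prss23 remained and the other 7 were lost, and of the differences between batches those of Itgb1 and Thbs1 remained. Calls in batch 2 were also lost by DESeq2 for Bdnf, Itga5 and Serpinb6b (adjusted p = 0.0888, 0.0530 and 0.0941) and with batch 2 alone for Serpinb6b (edgeR adjusted p = 0.0611). The summed smooth muscle and pericyte markers, carried by Acta2, were higher in PAD2KO than in WT of batch 2, whereas Rgs5, Notch3 and Cspg4 among them had lower means, and their part in these results was not tested.

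Between batches, 27 of the 48 genes were called in PAD2KO, 19 higher and 8 lower in batch 2 (56.2% beside 18.7% of all genes), and 25 in WT, 13 higher and 12 lower (52.1% beside 22.3%). Serpini1, whose means are given above, rose in both genotypes (log2 fold change 2.18 in PAD2KO and 3.07 in WT, edgeR adjusted p = 0.000143 and 1.06e-07). Itgb3, the integrin beta 3 chain, rose in both genotypes (1.88 in PAD2KO and 1.70 in WT, edgeR adjusted p = 3.74e-06 and 9.85e-07). Igf2r, a receptor that can bind the urokinase receptor and carries ligands to lysosomes, fell in both (-1.68 in PAD2KO and -1.39 in WT, edgeR adjusted p = 5.76e-09 and 3.66e-09). Eno1, a glycolytic enzyme that also docks plasminogen, rose in both (0.76 in PAD2KO and 0.89 in WT, edgeR adjusted p = 2.07e-05 and 1.91e-07), and Lrp1, which clears activators bound to their inhibitors, rose in both as well (0.39 in PAD2KO and 0.66 in WT, edgeR adjusted p = 0.0284 and 6.3e-05). Serpinb9, an inhibitor of granzyme B, fell in PAD2KO (-1.03, edgeR adjusted p = 0.000107) and gave -0.30 in WT (edgeR adjusted p = 0.167).

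Of the 8 tested genes of the thrombin and cell surface protease list, 4 were called between batches in PAD2KO, 2 higher and 2 lower in batch 2, and 6 in WT, 2 higher and 4 lower. Thbd, which encodes thrombomodulin, had 1065 and 1079 CPM in PAD2KO of batch 2 and 432 to 516 CPM in PAD2KO of batch 1 (log2 fold change 1.20, edgeR adjusted p = 1.25e-07), with 1.40 in WT (edgeR adjusted p = 6.27e-10). Procr, the endothelial protein C receptor, gave 1.96 in PAD2KO and 2.40 in WT (edgeR adjusted p = 1.56e-05 and 8.6e-08). Tfpi, the inhibitor of tissue factor, fell in PAD2KO (-0.74, edgeR adjusted p = 0.00516) and in WT (-0.85, edgeR adjusted p = 0.00052). Its PAD2KO call was lost without PAD2KO 6 (-0.61, edgeR adjusted p = 0.0885) and with gene length in the fit (-0.66, 0.101). Tissue factor mRNA itself fell in batch 2 in WT (F3, -1.23, edgeR adjusted p = 9.09e-09) and gave -0.29 in PAD2KO (edgeR adjusted p = 0.119). Igfbp5 rose in both genotypes (1.38 in PAD2KO and 2.22 in WT, edgeR adjusted p = 1.46e-08 and 1.31e-13), and so did Hgf (0.84 in PAD2KO and 1.71 in WT, edgeR adjusted p = 0.000714 and 1.24e-09). Thbs1 gave -0.06 in PAD2KO (edgeR adjusted p = 0.807) and fell in WT (-1.07, edgeR adjusted p = 2.73e-08). Mmp13, a collagenase, averaged 47.5 ± 24.5 CPM in PAD2KO of batch 2 and 5.98 ± 0.684 CPM in PAD2KO of batch 1 (2.97, edgeR adjusted p = 6.12e-06), and rose in WT as well (2.62, edgeR adjusted p = 5.94e-06). In both genotypes the summed fibroblast and smooth muscle and pericyte markers were lower and the summed macrophage and neutrophil markers higher in batch 2 than in batch 1. Summed mesothelial markers were lower in batch 2 in WT. Single markers did not all move with their sum, as Vim and Rgs5 had higher means and Ptprc lower means in batch 2 in both genotypes. The part of these markers in the differences was not tested.

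The members varied together across the 11 libraries, mostly through the batches. As a description, the highest correlation of log2 CPM between members was 0.92 for Serpine2 with Serpinf1, and 0.51 after the mean of each group was taken off. Plau with Plaur had 0.88, and -0.02 within groups. Within groups, Plat was negative with each other member (-0.18 to -0.41), Plau with Serpinf1 gave -0.55 and Plaur with Serpinf1 -0.04. Serpine2 gave 0.14 with Plaur and 0.05 with Plau within groups. The genes most like each member among 8110 genes averaging 4 or more on the log2 CPM scale were Srgap3, Errfi1 and Eml1 for Plau (r from 0.97 to 0.98), Cop1, Psen2 and Gprc5b for Plat (0.91 to 0.93) and Msn, Gas5 and Hspa8 for Plaur (0.96 to 0.97). They were Ifngr2, Dhx40 and Ern1 for Serpine2 (0.96 to 0.99) and Sdc1, Slpi and Ern1 for Serpinf1 (0.96 to 0.97), so that Ern1 was named for both serpins. These libraries share batches and totals, and the likeness is among the highest of 8110 values.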

How the data were processed

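The sources name bulk RNA-seq of sorted fibroblasts, with libraries made by a SMARTer kit in a SmartSeq2 workflow, per the labels' protocols. The authors deposited a gene table that gives, for each of 11 libraries, estimated counts, TPM and effective gene lengths, per the file headers. The submitters' processing notes list the build GRCm39 and the tools DESeq2 1.46.0, Salmon 1.3.2 and fastp, without their roles. The annotation and the use of strand are not given in the sources used here. No molecular identifiers are named, so amplified copies may count as separate reads. The number of columns left unused was 0.

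Estimated counts of 32932 entries with a symbol were summed to 32868 symbols and rounded to whole numbers. Entries without a symbol, 3.80% to 6.40% of the counts of each library, were left out. Tests used edgeR 4.0.16 in R 4.3.3 (TMM, filterByExpr on genotype, robust quasi-likelihood fit, Benjamini-Hochberg adjustment over all 9932 genes, threshold 0.05). A model with a mean for each genotype and batch over all 11 libraries gave the contrasts within batches, between batches and their difference, and a model with batch and genotype gave both batches together, with a common biological coefficient of variation of 0.129. The deposited TPM values were used to compare genes and for the ratio of activators. The tests were also run on simulated counts with known changes, where each gene otherwise had the same mean in all libraries. Batch differences as wide as those seen here were not simulated, and the outcome is not given here. DESeq2 1.42.0 and the other alternatives are described in the closing section, with Python 3.11.15, NumPy 2.4.6 and SciPy 1.17.1 for the permutation test.

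The members, lists and tests were chosen with earlier results of these data known. Besides the members, the text names genes of the lists that passed between genotypes (at most 4 a direction and list by p), part of the 2 with the smallest p per direction and list between batches, and the 3 genes most correlated with each member over 11 libraries on the log2 CPM scale (prior count 2). Naming only part of the genes between batches was decided after their values were seen. Some genes are not reported here and were left out of the lists and their counts.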

Additional observations from a re-analysis of the deposited data

How the results depend on the processing

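RLE size factors and leaving out Rn18s and the mitochondrial mRNAs changed no call of a member. Of the 5 members, the number called for PAD2KO against WT in batch 2 was 1, against 0 with batch 2 alone, 0 with a replicate block (the number in the label that both genotypes carry) and 0 to 2 when each library was left out in turn, the 0 coming without PAD2KO 7 or WT 7 and the 2 without PAD2KO 6. A group left with a lone library was assumed to vary like the others. For the difference between batches it was 0, against 1 (Serpinf1, -0.69, edgeR adjusted p = 0.0134) with no filter on low counts and 0 to 1 when each library was left out (Serpinf1 without PAD2KO 6, -1.04, edgeR adjusted p = 0.0152). With the replicate block Serpinf1 in batch 2 was -0.80 (edgeR adjusted p = 0.253), and the block changed no other member's call. Plat moved with it to -0.30 in batch 1, -0.16 in batch 2 and -0.23 over both batches (edgeR adjusted p = 0.865 for the last). Of the genes in the further lists, the block lost Bdnf, Itga5 and Serpinb6b in batch 2 (edgeR adjusted p = 0.110, 0.112 and 0.204) and the Prss23 difference between batches (0.0754). The deviations of libraries with the same number from their group means had correlations of 0.0487, 0.0104, 0.0297 and 0.0015 (numbers 1, 3, 6 and 7). Libraries 1 and 6 were closest to their own number. The deviations of PAD2KO 6 and PAD2KO 7 mirror each other because they form a group of 2, so these values cannot decide whether numbers pair libraries. PAD2KO 2, WT 4 and WT 5 carry a number that the other genotype lacks, so they add nothing to the genotype difference in the block fit. Calls lost with the block can thus come from fewer libraries, and they cannot decide on pairing either. The main fits were made without the block. A block cannot be fitted between batches, which share no number.

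The log2 fold changes that changed sign were all from values that had not passed. In batch 1, Plaur gave -0.06 with the replicate block and -0.13 to 0.18 when each library was left out, and Serpine2 -0.16 to 0.08. Serpinf1 in batch 1 gave 0.01 with no filter, 0.16 with length offsets, 0.01 without Rn18s and the mitochondrial mRNAs, 0.02 with the replicate block, 0.01 with batch 1 alone and -0.07 to 0.10 when each library was left out. With length offsets Plaur gave -0.09 for the difference between batches and Serpinf1 -0.03 for batch 2 against batch 1 in PAD2KO. Over both batches Plau gave -0.16 to 0.06 when each library was left out, and Plaur -0.00029 with the replicate block. The cause was not tested for any of these. An exact two-sided permutation within batches over 200 splits gave unadjusted p of 0.01 for Plat and 0.095 for Serpinf1. The same permutation gave 0.155 for Serpine2, 0.455 for Plaur and 0.83 for Plau. The lack of overlap of Plat in both batches makes its true split the most negative of the 200. Its small p therefore adds little to that lack of overlap.

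Over all genes, length offsets called 89 in batch 2, 2 in batch 1, 26 for the difference between batches, 2 over both batches, 1356 between batches in WT and 864 in PAD2KO, where the counts without them were 309, 13, 161, 19, 2212 and 1853. No filter, which tested 20570 genes, called 529, 58, 323 and 142 in the first 4 of these. Leaving out a library gave 65 (without PAD2KO 7) to 371 in batch 2, 33 to 233 for the difference, 5 to 20 in batch 1, 8 to 26 over both batches and 1079 to 1947 between batches in PAD2KO. Batch 1 alone called 22, and the replicate block 8 in batch 1. DESeq2 called 30 over both batches and 1219 between batches in PAD2KO, and 4 genes were called over both batches with no batch term or with the replicate block. Of the 48 genes tested in the further lists, length offsets left 4 called in batch 2 and 2 for the difference, and no filter called 18 of 79 and 11 of 79. With 34 to 467 counts for each member in a library, counting error limits small differences.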
